A study of Mus musculus with 30 samples.

Results

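Secreted or membrane-bound factors that keep myeloid cells and blood progenitors alive were followed across the sorted mesenchymal cells of the mouse gut: *Csf1*, *Il34*, *Flt3l*, *Kitl*, *Csf2* and *Csf3*. The 6 genes were chosen by symbol, and their estimated transcript counts were summed to genes, of which the files hold 32316. CSF1 and IL-34 are the ligands of the receptor CSF1R, on which macrophages depend. FLT3L drives the growth of dendritic cell precursors through FLT3, and KITL, also called stem cell factor, acts through KIT on blood progenitors, mast cells and interstitial cells of Cajal. GM-CSF (*Csf2*) and G-CSF (*Csf3*) act on macrophages, dendritic cells and neutrophils.

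The data are 30 bulk RNA-seq libraries of 10 stromal populations, 3 libraries each, from untreated adult C57BL6/Nrj mice aged 8 to 10 weeks. Cells of the lamina propria came from 3 individual mice and were sorted after removal of dead, lineage-positive, CD31+, BP3+, EpCAM+ and NCAM hi cells. The small intestine gave pericytes (PDGFRα-ESAM-1+PDPN-), smooth muscle cells (SMC, PDGFRα-ESAM-1+PDPN+) and 3 kinds of ESAM-1- fibroblast (FB): PDGFRα hiCD34- FB, Fgfr2+ FB (PDGFRα intCD34-), and CD34+ FB (PDGFRα intCD34+), which the study describes as a mixture. The colon gave pericytes by the same gate and 4 kinds of ESAM-1- FB: PDGFRα hi FB (PDPN+CD34-), Fgfr2+ FB (PDPN hiCD34+CD90-), CD90+ FB (PDPN hiCD34+CD90+) and CD81+ FB (PDPN intCD34+CD90-). Library totals ran from 2245052 to 19096945 estimated counts with a median of 9601683, and the smallest library was replicate 3 of the small intestinal Fgfr2+ FB. Levels below are estimated counts as CPM after TMM scaling, with values of a population in the order of replicates 1, 2 and 3, and errors are SD over n = 3 libraries.

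The sorted identities carried their markers. Summed over 6 pericyte markers, pericytes reached at least 32079 CPM in each of their 6 libraries, against at most 7553 CPM elsewhere, where the highest library was one of SMC. *Rgs5* gave most of this sum, with means of 31759 CPM in small intestinal and 33492 CPM in colon pericytes. *Notch3* and *Cspg4* means were also highest in pericytes, but *Kcnj8* was highest in small intestinal PDGFRα hi FB (569 CPM, against 275 and 529 CPM in pericytes). *Abcc9* there had 1784 CPM, against 2136 and 1927 CPM in pericytes. *Esam* had 119 CPM in SMC, against 110 and 141 CPM in pericytes. SMC held 16821 CPM or more of 5 contractile genes, with *Myh11* the most abundant, although the colon pericytes also held 9921, 11187 and 10884 CPM of these genes. *Pdgfra* was highest in PDGFRα hi FB of either tissue (6517 and 2445 CPM), *Grem1* in CD81+ and CD34+ FB (1979 and 1046 CPM), and *Fgfr2* in small intestinal Fgfr2+ FB (1647 CPM). The colon Fgfr2+ FB had 504, 458 and 457 CPM of *Fgfr2*, not far above the 324, 441 and 333 CPM of the colon CD90+ FB, while *Thy1*, which encodes CD90, was highest in small intestinal pericytes (221 CPM) and also led its list in CD90+ FB (197 CPM). In bulk libraries of this kind, fewer cells of a type and less RNA per cell cannot be told apart.

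*Csf1*, the main growth factor for tissue macrophages, was the most even of the members: all fibroblasts and SMC made it, and pericytes made little. Small intestinal PDGFRα hi FB had 728, 753 and 425 CPM (636 ± 182). Colon Fgfr2+ FB had 348, 403 and 546 CPM and colon PDGFRα hi FB 436, 279 and 475 CPM. Every fibroblast population overlapped its neighbours in the order of means, which went on through colon CD90+ FB (377 ± 78.4), colon CD81+ FB (357 ± 84.4), small intestinal Fgfr2+ FB (328 ± 54.1) and CD34+ FB (327 ± 3.77) to SMC. SMC had 294, 231 and 352 CPM. Small intestinal pericytes had 36.5, 104 and 139 CPM, and colon pericytes had 85.8, 85.8 and 90.4 CPM. Below SMC the order broke: no pericyte library reached the lowest SMC or fibroblast library, the SMC mean was 3.14 times that of small intestinal pericytes, and the pericytes of both tissues overlapped.

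*Il34*, the second ligand of CSF1R, was highest by mean in small intestinal pericytes and varied over a far wider range. Small intestinal pericytes had 192, 363 and 55.9 CPM (204 ± 154) and colon pericytes 42.9, 94.8 and 83.9 CPM (73.9 ± 27.3). Small intestinal PDGFRα hi FB had 94.7, 86.2 and 34.5 CPM, Fgfr2+ FB of that tissue 7.19, 46.5 and 39.5 CPM, and colon PDGFRα hi FB 41.8, 15.7 and 31.1 CPM. These 5 populations formed an upper group in which each overlapped the next, and per kb of effective length small intestinal PDGFRα hi FB (115 ± 57.8) stood above colon pericytes (105 ± 50). The lower group began with a mean 6.42 times smaller, and no library of it reached the upper one: colon CD90+ FB had 4.5, 7.02 and 2.29 CPM, and colon Fgfr2+ FB had 5.68, 5.75 and 2.11 CPM. SMC had 4.43, 4.81 and 0.33 CPM, the last of these resting on 3 counts, and CD34+ FB had 1.62, 1.66 and 2.9 CPM. Colon CD81+ FB were lowest of all at 0.468, 1.14 and 1.25 CPM, below every CD34+ FB library, and the highest population mean was 214 times theirs. The Fgfr2+ FB were thus split between the groups, with the small intestinal libraries in the upper and the colon libraries in the lower. The split was narrow, as small intestinal replicate 1 (7.19 CPM) was barely above colon CD90+ FB replicate 2 (7.02 CPM). On protein-coding transcripts alone the Fgfr2+ FB of the tissues overlapped.

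**Figure D1:**
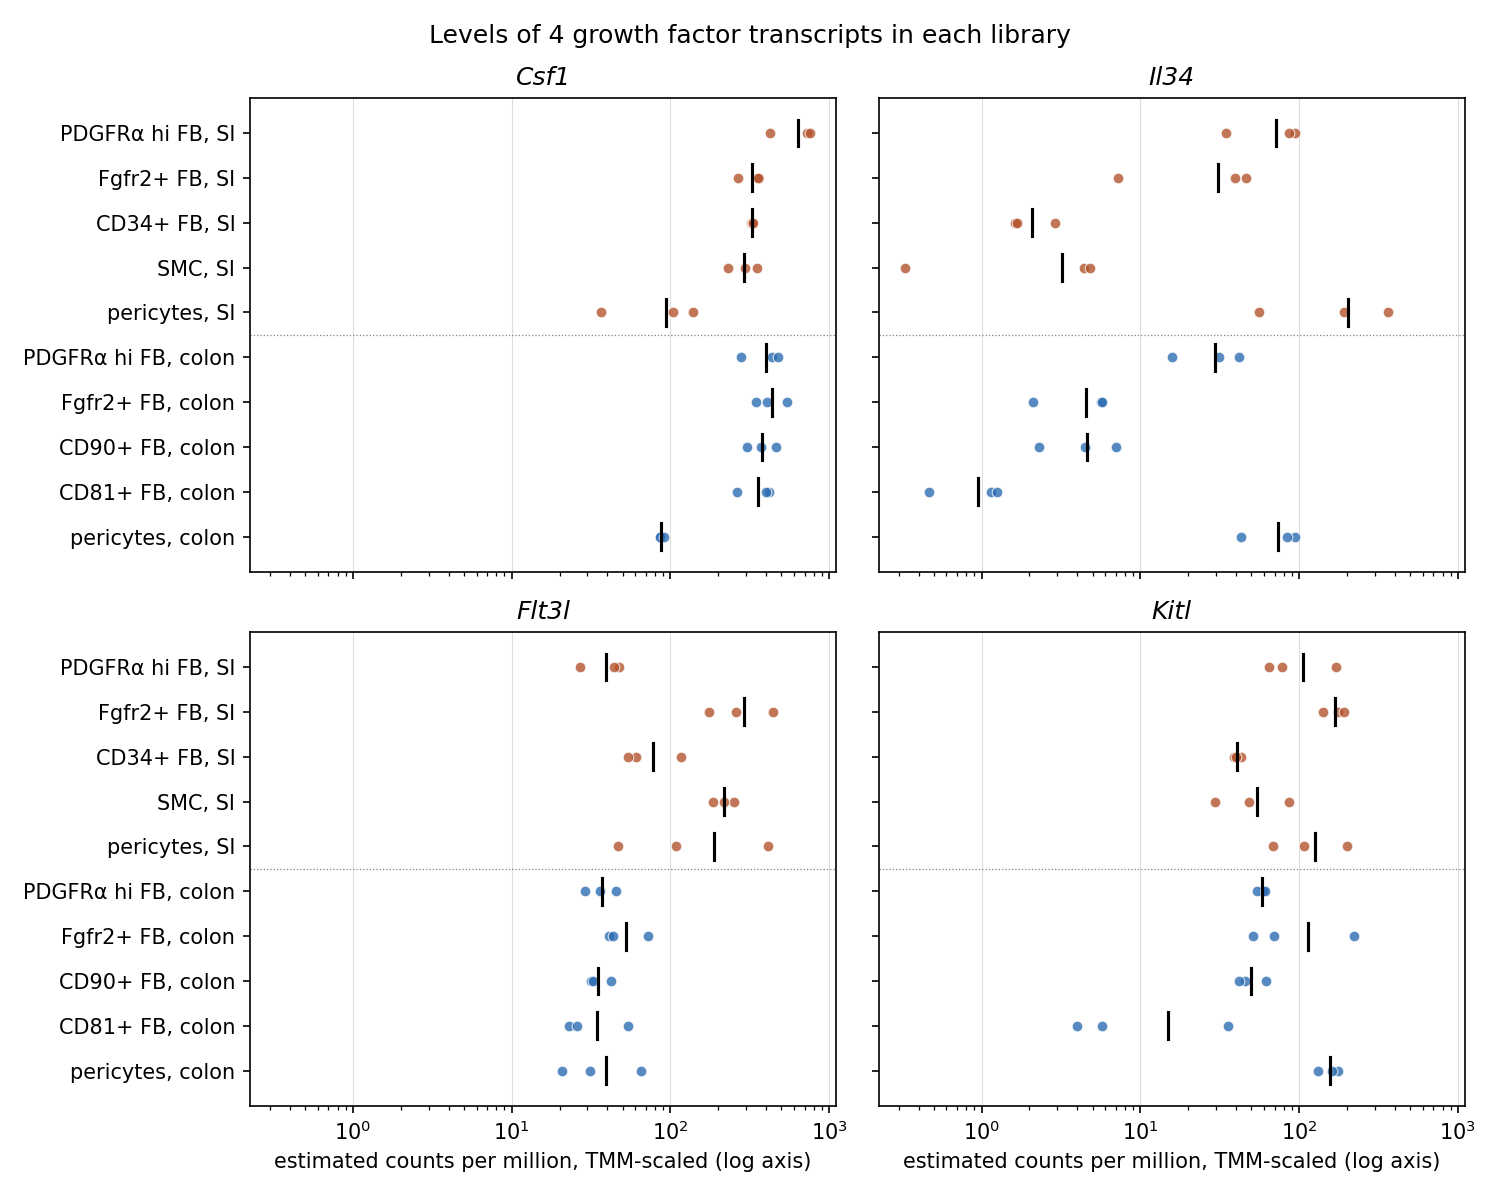
Level of *Csf1*, *Il34*, *Flt3l* and *Kitl* in each of 30 libraries (points, CPM on a log axis) by population, with the population mean as a black bar; small intestine (SI) in brown, colon in blue. *Csf1* is lowest in the pericytes (93.2 and 87.4 CPM) and *Il34* is at 204 and 73.9 CPM there, and for *Flt3l* replicate 1 of the small intestinal pericytes stands at 412 CPM, far from the other libraries of its population.

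The balance of the CSF1R ligands was next compared on a scale that allows it. Scaled by effective transcript length, which allows a comparison between genes, colon pericytes had 48.4, 123 and 144 CPM per kb of *Il34* against 29.8, 30.2 and 35.4 CPM per kb of *Csf1*. *Il34* made up 61.9, 80.2 and 80.2% of the summed ligand level per kb in these libraries, and 89.8, 92.5 and 57.3% in small intestinal pericytes. No library of any other population passed 44.9%, the value of 1 small intestinal Fgfr2+ FB library. The share averaged 29.3 ± 7.37% in small intestinal and 26.8 ± 5.52% in colon PDGFRα hi FB, and 25.3 ± 18.2% in small intestinal Fgfr2+ FB. In SMC, CD34+ FB and the other colon FB it averaged between 1.48% and 5.53%. On protein-coding transcripts alone, a comparison added after the data were seen, the separation was not complete: the share was 89.2, 85.2 and 12.1% in small intestinal pericytes and 41.5, 56.5 and 53.2% in colon pericytes. The other populations then reached at most 17.2%, in replicate 2 of the small intestinal Fgfr2+ FB, above replicate 3 of the small intestinal pericytes. These shares are a description of the levels, and no test was made of them.

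**Figure D2:**
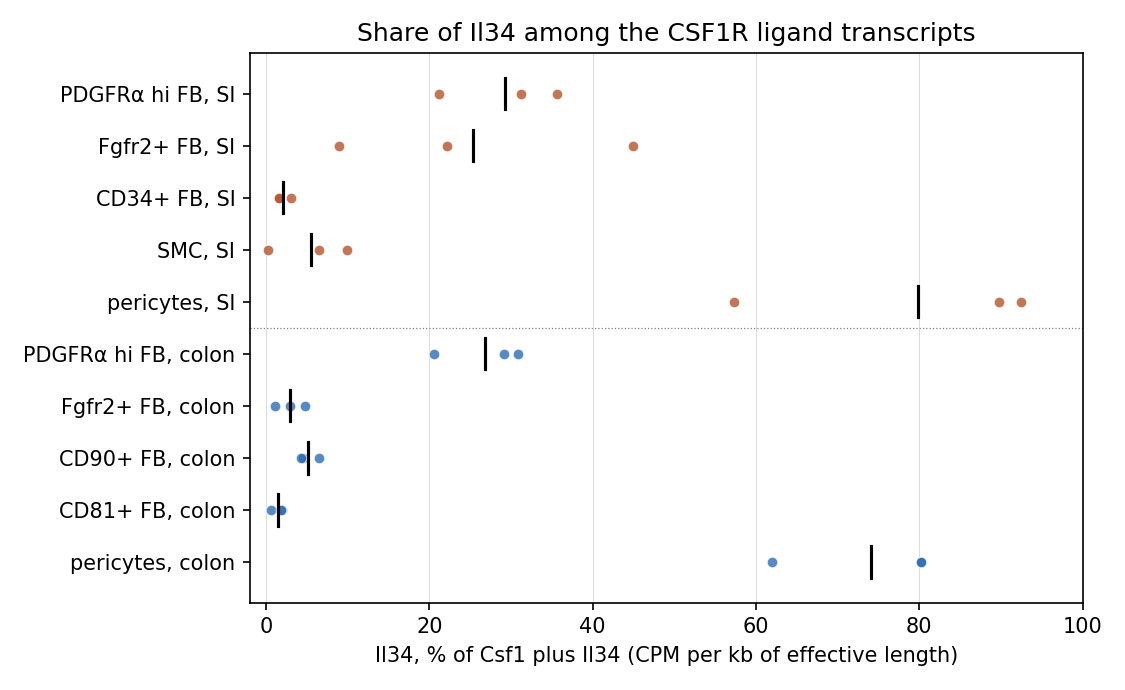
*Il34* as a percentage of *Csf1* plus *Il34*, both in CPM per kb of effective length, in each library (points) with the population mean as a black bar; small intestine (SI) in brown, colon in blue. The pericyte libraries lie between 57.3 and 92.5%, and the libraries of every other population at or below 44.9%; on protein-coding transcripts alone 1 pericyte library falls to 12.1%, among the fibroblasts.

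*Flt3l*, the dendritic cell factor, was high in some populations of the small intestine and uniformly low in the colon. Small intestinal Fgfr2+ FB had 257, 441 and 176 CPM (291 ± 135), and SMC 186, 253 and 216 CPM (218 ± 33.2). Small intestinal pericytes had 412, 46.6 and 108 CPM, so that their mean of 189 CPM came mostly from replicate 1. CD34+ FB followed with 60.8, 116 and 54.4 CPM. Colon Fgfr2+ FB had 40.8, 43.2 and 72.2 CPM, and small intestinal PDGFRα hi FB had 26.8, 47.1 and 44.2 CPM. Each of the remaining colon populations averaged between 34.3 and 39.1 CPM, and from CD34+ FB downwards every population overlapped the next in the order. All libraries of the small intestinal Fgfr2+ FB and of SMC were above every colon library. On protein-coding transcripts alone this held for SMC only: replicate 3 of the small intestinal Fgfr2+ FB (30.5 CPM) was below colon pericyte replicate 2 (37.4 CPM).

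*Kitl*, the ligand of KIT, was spread over fibroblasts and pericytes of both tissues. Small intestinal Fgfr2+ FB had 142, 175 and 191 CPM (169 ± 25.4), and colon pericytes 175, 132 and 160 CPM (156 ± 21.9). Small intestinal pericytes had 199, 108 and 68.9 CPM, colon Fgfr2+ FB 223, 69.1 and 50.9 CPM, and PDGFRα hi FB of the small intestine 64.8, 77.6 and 171 CPM. In each of the last 2 populations a single library was far above the others, and all 5 overlapped in turn. Colon PDGFRα hi FB came next with 59, 54.1 and 61.2 CPM, without overlap with the population just above in the order, followed by SMC (29.3, 48 and 86.2 CPM), colon CD90+ FB (45.7, 62 and 41.5 CPM) and CD34+ FB (39, 43 and 40.1 CPM). Colon CD81+ FB were lowest at 35.4, 3.97 and 5.75 CPM, each below every CD34+ FB library. Per kb of effective length the first place went to small intestinal pericytes (48.5 ± 30.8 CPM per kb) in place of Fgfr2+ FB (37.8 ± 2.31), and the libraries of the 2 populations overlapped.

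*Csf2* and *Csf3* were at the limit of detection. *Csf2* had 24 counts over all 30 libraries, no more than 5 in any, and 0 in 19; it did not pass the filter of at least 6 counts in 3 libraries and was not tested. A count of 0 allows up to 3 counts, which is between 0.142 and 1.04 CPM depending on the library. *Csf3* had 247 counts in all, with 0 in 18 libraries and at least 6 in only 4. Colon pericytes held 39, 0 and 88 of these counts, colon CD90+ FB 3, 92 and 0, and CD34+ FB 3, 0 and 6. Where *Csf3* was found, libraries of the same population were thus at 0, and no fold change is given for either gene.

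Tested with edgeR across all 10 populations, 5 of the 5 members that passed the filter differed at an adjusted p under 0.05, as did 26.4% of the 17542 genes tested. Adjusted p was 6.51e-06 for *Csf1*, 2.91e-08 for *Il34*, 1.14e-05 for *Flt3l*, 0.00278 for *Kitl* and 0.0438 for *Csf3*. *Csf3* passed the filter only through the 4 libraries where it had at least 6 counts, so its adjusted p is no support for a difference. In the comparisons of populations that follow, a gene was called at an adjusted p under 0.05 together with a log2 fold change beyond 1.5 in either direction, and the share of all genes called is given beside each count of members. The study listed *Il34* and *Flt3l* among genes called on these same libraries, so their calls here are not independent evidence.

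Pericytes were compared with fibroblasts to place the growth factors between the vessel wall and the connective tissue. In the colon, 3 of 5 members were called against the mean of the 4 FB populations, beside 16% of all genes. *Il34* was higher in pericytes by 3.90 on the log2 scale (SE 0.51, adjusted p 1.02e-06) and *Kitl* by 1.72 (SE 0.43, adjusted p 0.00498), and *Csf1* was lower at -2.16 (SE 0.32, adjusted p 1.02e-05). All 3 colon pericyte libraries were below every colon FB library for *Csf1* and above every one for *Il34*; for *Kitl* replicate 1 of the colon Fgfr2+ FB, at 223 CPM, was higher than all of them. In the small intestine 2 of 5 members were called against the mean of the 3 FB populations, beside 16.6% of all genes. There the log2 fold change was -2.13 for *Csf1* (SE 0.33, adjusted p 1.87e-05) and 3.61 for *Il34* (SE 0.55, adjusted p 1.7e-05). The libraries overlapped for *Il34*: pericyte replicate 3 (55.9 CPM) was below replicates 1 and 2 of PDGFRα hi FB (94.7 and 86.2 CPM). *Flt3l* and *Kitl* were not called, and the log2 fold change of *Flt3l* turned from 0.97 to -0.34 without replicate 1 of the small intestinal pericytes. With only its protein-coding transcripts counted, *Flt3l* was called at 2.18 (adjusted p 0.04, within a range of 0.0179 to 0.685 over 37 alternatives). *Csf3* passed the filter only through the few libraries where it was found, so its test is no support for a difference. It had an adjusted p of 0.0515 in the colon comparison and passed in 8 of its 35 alternatives. Its adjusted p ranged from 0.0151 to 0.265, and the 8 that passed all left out 1 library. These were the refits without colon pericyte replicate 2 (0.0362), CD90+ FB replicate 2 (0.0151), Fgfr2+ FB replicate 2 (0.0257) or PDGFRα hi FB replicate 2 (0.0494) of the colon, and without small intestinal Fgfr2+ FB replicate 1 (0.0483) or 2 (0.0496), SMC replicate 3 (0.0485) or small intestinal pericyte replicate 2 (0.05).

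SMC share the ESAM-1+ gate with pericytes but differed from them in both CSF1R ligands. Of 5 members 2 were called, beside 10.1% of all genes: *Csf1* was higher in SMC by 1.65 on the log2 scale (SE 0.36, adjusted p 0.0024), and *Il34* lower at -5.99 (SE 0.92, adjusted p 3.8e-05). No SMC library overlapped a pericyte library for either gene. The *Csf1* call was lost without replicate 1 of the small intestinal pericytes, its lowest library, where the difference fell under the threshold at 1.33, and in a fit of these 2 populations alone (1.69, adjusted p 0.206, within a range of 3.61e-05 to 0.206 over 36 alternatives). Against the mean of the small intestinal FB, 1 of 5 members was called in SMC, beside 5.16% of all genes. This was *Il34*, at -2.37 (SE 0.72, adjusted p 0.0423). That call held in only 18 of the 30 refits that left out 1 library, and without SMC replicate 3, which had 3 counts of *Il34*, the value was -1.82 (adjusted p 0.261). It was also lost without SMC replicate 1 (-2.68) or 2 (-2.79), without CD34+ FB replicate 1 (-2.40), 2 (-2.42) or 3 (-2.26), without small intestinal PDGFRα hi FB replicate 1 (-2.29) or 2 (-2.32), without small intestinal Fgfr2+ FB replicate 2 (-2.23) or 3 (-2.30), and without colon CD90+ FB replicate 1 or colon PDGFRα hi FB replicate 3 (-2.37 each). In a fit of the compared populations alone it was -2.34 (adjusted p 0.0708, within a range of 0.0028 to 0.261).

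Among the small intestinal fibroblasts, the members called were *Flt3l* and *Il34*, neither of them in every comparison. PDGFRα hi FB against Fgfr2+ FB gave 1 call among 5 members, beside 2.53% of all genes: *Flt3l* was lower in PDGFRα hi FB at -2.89 on the log2 scale (SE 0.59, adjusted p 0.00366) and no overlap between the libraries. It was called in every refit without 1 library but not on protein-coding transcripts alone (-2.55, adjusted p 0.291, within a range of 1.85e-05 to 0.291 over 37 alternatives). PDGFRα hi FB against CD34+ FB gave 1 call, beside 3.23% of all genes: *Il34*, higher by 5.12 (SE 0.89, adjusted p 0.000343), with the lowest PDGFRα hi library at 34.5 CPM and the highest CD34+ library at 2.9 CPM. Fgfr2+ FB against CD34+ FB likewise gave 1 call, beside 1.21% of all genes, and it was again *Il34*, higher by 3.91 (SE 0.84, adjusted p 0.0107). This call was lost without CD34+ FB replicate 1 (3.85, adjusted p 0.0874) or replicate 2 (3.77, adjusted p 0.0871), and with only the protein-coding transcripts of *Il34* counted (3.64, adjusted p 0.159), within a range of 1.53e-05 to 0.159 over 36 alternatives. In the same comparison *Kitl* (2.06, adjusted p 0.129) and *Flt3l* (1.92, adjusted p 0.115) were not called. Both passed with DESeq2 (adjusted p 0.024 and 0.022) and in a fit of these populations alone (0.00661 and 0.049), within ranges of 0.00661 to 0.372 and 0.0194 to 0.532. *Kitl* also passed without colon CD81+ FB replicate 1 (2.06, adjusted p 0.0302), and *Flt3l* without small intestinal pericyte replicate 1 (1.98, adjusted p 0.0194) or 2 (1.92, adjusted p 0.0462).

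In the colon, PDGFRα hi FB and CD81+ FB marked the ends of the *Il34* range among fibroblasts. PDGFRα hi FB against CD81+ FB gave 1 call among 5 members, beside 3.94% of all genes: *Il34* was higher by 4.94 (SE 0.89, adjusted p 0.000516), and the lowest PDGFRα hi library (15.7 CPM) was far above the highest CD81+ library (1.25 CPM). Against Fgfr2+ FB and against CD90+ FB, PDGFRα hi FB gave 0 calls among 5 members with edgeR, beside 1.35% and 1.43% of all genes, where unadjusted p was under 0.05 for 1505 and 1395 genes and DESeq2 called 481 and 473. For *Il34* these differences were 2.70 (adjusted p 0.105) and 2.68 (adjusted p 0.101), with no overlap between libraries. DESeq2 called both (0.012 and 0.0104), as did fits of the compared populations alone (0.0324 and 0.0085) and fits without SMC replicate 3 (0.0464 and 0.043), within ranges of 0.012 to 0.545 and 0.0085 to 0.461 over 36 alternatives each.

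*Kitl* was the member that set colon Fgfr2+ FB apart from CD81+ FB, the only 1 of 5 called there, beside 0.941% of all genes. It was higher in Fgfr2+ FB by 2.93 (SE 0.65, adjusted p 0.0181), and all 3 Fgfr2+ libraries, down to 50.9 CPM, were above the highest CD81+ library at 35.4 CPM. The call depended on single libraries: without colon Fgfr2+ FB replicate 1, the library at 223 CPM, the difference was 2.00 (adjusted p 0.242), without CD81+ FB replicate 2 it was 2.48 (adjusted p 0.112), and without CD81+ FB replicate 3 it was 2.54 (adjusted p 0.119). Without CD81+ FB replicate 1 it was 4.56. A fit of these 2 populations alone gave 2.95 (adjusted p 0.262, within a range of 0.000201 to 0.262). CD81+ FB against CD90+ FB gave 0 calls among 5 members with edgeR, beside 0.621% of all genes, with 1639 genes at an unadjusted p under 0.05 and 390 called by DESeq2. For *Kitl* the log2 fold change was -1.73 (adjusted p 0.318), and without CD81+ FB replicate 1 it was -3.35 (adjusted p 0.00485). That library also kept *Kitl* from a call between PDGFRα hi and CD81+ FB, where the difference was 1.95 (adjusted p 0.0835) with it and 3.58 (adjusted p 0.000603) without it, and DESeq2 gave 2.01 (adjusted p 0.0206). Fgfr2+ FB and CD90+ FB of the colon gave 0 calls among the members and 0% of all genes with edgeR, although 569 genes had an unadjusted p under 0.05 and DESeq2 called 37.

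The tissues were compared through the 3 populations sorted from both, and *Flt3l* was called in 2 of them, though in neither on protein-coding transcripts alone (adjusted p 0.421 and 0.112, within ranges of 0.000647 to 0.421 and 0.000851 to 0.544). In Fgfr2+ FB 1 of 5 members was called, beside 1.45% of all genes: *Flt3l* was higher in the small intestine by 2.49 (SE 0.58, adjusted p 0.0205), with the lowest small intestinal library at 176 CPM and the highest colon library at 72.2 CPM. That call was lost without small intestinal Fgfr2+ FB replicate 2 (2.06, adjusted p 0.118) or colon Fgfr2+ FB replicate 1 (2.34, adjusted p 0.116) or replicate 2 (2.37, adjusted p 0.12). *Il34* was higher by 2.77 with an adjusted p of 0.0796 and no overlap between the tissues. It passed with DESeq2 (adjusted p 0.00576), with no filter on low counts (0.0387), without small intestinal Fgfr2+ FB replicate 1 (0.0425) and without SMC replicate 3 (0.0346), within a range of 0.00576 to 0.413 over 36 alternatives. On protein-coding transcripts alone the *Il34* levels of these FB overlapped between the tissues. They were 0.698, 42.5 and 2.42 CPM in the small intestine and 5.48, 3.22 and 1.44 CPM in the colon. In pericytes 1 of 5 members was called, beside 5.72% of all genes: *Flt3l*, higher in the small intestine by 2.27 (SE 0.58, adjusted p 0.0205). The libraries of the tissues overlapped here, and without the 412 CPM library, small intestinal pericyte replicate 1, the difference was 0.95 (adjusted p 0.284). It was also lost without colon pericyte replicate 1 (1.97, adjusted p 0.075) or 3 (2.13, adjusted p 0.0625) and in a fit of the pericytes alone (adjusted p 0.544), within a range of 0.000851 to 0.544 over 37 alternatives.

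In PDGFRα hi FB 0 of 5 members were called between the tissues with edgeR, beside 0.963% of all genes, with 1146 genes at an unadjusted p under 0.05 and 403 called by DESeq2. *Csf1* differed by 0.68 (adjusted p 0.824) and *Il34* by 1.28 (adjusted p 0.937), both with overlapping libraries. *Flt3l* differed by 0.10 (adjusted p 1). *Kitl* differed by 0.85 (adjusted p 1), although its lowest small intestinal library (64.8 CPM) was just above its highest colon library (61.2 CPM). The difference between the tissue effects of PDGFRα hi and Fgfr2+ FB was tested as an interaction and gave 0 calls among 5 members with edgeR, beside 0.661% of all genes, with 1378 genes at an unadjusted p under 0.05 and 367 called by DESeq2. The interaction was -2.39 for *Flt3l* (SE 0.80, adjusted p 0.281), and a fit of the 4 populations alone called it (-2.47, adjusted p 0.0299, within a range of 0.0299 to 0.951 over 37 alternatives). A larger effect of tissue on *Flt3l* in Fgfr2+ FB than in PDGFRα hi FB was therefore not established at the chosen threshold.

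Much of the *Flt3l* signal lay on transcripts that are not annotated as protein-coding. The coding transcripts held a median of 31.5% of the gene's estimated counts, from 2.24% to 90.3% by library. The transcript with the most counts, *Flt3l-213*, is annotated as a retained intron and took 39.1% of all *Flt3l* counts, and *Flt3l-211*, which is coding, took 25.1%. On coding transcripts alone small intestinal Fgfr2+ FB had 101, 113 and 30.5 CPM, SMC 59.1, 53.1 and 48.4 CPM, and colon Fgfr2+ FB 22.5, 13.4 and 22.5 CPM. Fgfr2+ FB did not overlap between the tissues, but none of the 3 *Flt3l* calls passed. The difference was 2.07 between tissues in Fgfr2+ FB (adjusted p 0.421, within 0.000647 to 0.421 over 37 alternatives), 2.79 in pericytes (adjusted p 0.112), and -2.55 between small intestinal PDGFRα hi and Fgfr2+ FB (adjusted p 0.291, within 1.85e-05 to 0.291). Small intestinal pericytes had 372, 15.3 and 10.7 CPM on coding transcripts, so that their mean was the highest of all on this measure (133 against 81.5 CPM in small intestinal Fgfr2+ FB), carried by replicate 1. In addition, 20.1% of the 31-base words of *Flt3l* transcripts also occur in other genes on its strand, among them *Gm45713*, a read-through gene on the same strand. *Gm45713* had 6356 counts over all libraries, among them 133 CPM in small intestinal pericyte replicate 1 and 139 CPM in small intestinal Fgfr2+ FB replicate 1.

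The other members shared at most 0.39% of such words with another gene on their strand. With the opposite strand *Csf2* shared 9.22%, among others with *Gm12223*, and *Il34* 2.37%, among others with *Gm15895*. These antisense genes are not in the deposited transcript set and the strandedness of the libraries is not stated, so reads from them cannot be set apart. Protein-coding transcripts held a median of 99.8% of *Csf1* counts, all of the *Kitl*, *Csf2* and *Csf3* counts, and a median of 56.5% of *Il34* counts. *Il34-201*, the main coding form, took 59.6% of *Il34* counts, and *Il34-205*, a processed transcript with no coding frame, took 21.9%. With coding transcripts alone *Il34* was 190, 317 and 17.7 CPM in small intestinal pericytes, 32.1, 61.9 and 60.5 CPM in colon pericytes, and 53.6, 42.9 and 20 CPM in PDGFRα hi FB of the small intestine. In small intestinal Fgfr2+ FB it was 0.698, 42.5 and 2.42 CPM, so that this population's place in the upper group rested on replicate 2 once the other transcripts were set aside.

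*Csf1* and *Kitl* are each made as forms that differ in how the protein is held at the membrane or released. The annotated transcripts of these forms differ in splicing inside or around exon 6. They also differ in length outside it, and the estimates draw on all of their bases. In *Csf1*, on the minus strand of chromosome 3 (GRCm38), the long forms of 552 codons (*Csf1-201* and *Csf1-203*) keep 885 bases of exon 6 at chr3:107748285-107749169 that the short form of 257 codons (*Csf1-202*) skips. The long forms give secreted CSF1, and the short form gives the membrane-anchored protein. The junctions are shown because each form joins exon 5 to a different base of exon 6: lower case marks the last 30 bases of exon 5 (chr3:107750311-107750340), shared by both, and capitals mark the first 30 bases of exon 6 as each form uses it (chr3:107749140-107749169 in the long form, chr3:107748255-107748284 in the short form).
*Csf1* long form: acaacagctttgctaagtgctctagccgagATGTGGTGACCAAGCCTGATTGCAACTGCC
*Csf1* short form: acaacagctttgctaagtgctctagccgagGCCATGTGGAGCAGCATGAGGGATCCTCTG

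The short form was the larger estimated share of *Csf1* in every library, from 51.4 to 99.7% of the TPM of short and long forms, with a median of 76.5%. Colon pericytes stood highest at 92.2, 99.7 and 88.7%, and small intestinal pericytes had the lowest mean at 51.4, 67.1 and 68.2%, without overlap between the tissues. These shares rested on 796, 680 and 1207 estimated counts in colon pericytes and on only 170, 729 and 910 in small intestinal pericytes. The libraries of the fibroblasts and SMC lay between 54.6 and 94.9%. In *Kitl*, on the plus strand of chromosome 10, *Kitl-202* (273 codons) contains an exon of 84 bases that *Kitl-201* (245 codons) lacks. This exon holds the main site at which KITL is cut from the membrane, so its presence separates the readily shed form from the form that stays on the cell. It is printed whole, in capitals, as the sequence that separates the forms (chr10:100080857-100080940).
*Kitl* exon 6: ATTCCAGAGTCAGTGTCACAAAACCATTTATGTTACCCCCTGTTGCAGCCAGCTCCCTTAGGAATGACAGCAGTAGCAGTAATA

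*Kitl-202* took 26.1 to 100% of the TPM of these 2 forms, with a median of 80.7%. Small intestinal pericytes had the lowest mean, at 30, 61.4 and 26.1%, and 1 SMC library was also low at 39.4% while the other SMC libraries were at 100%. Colon pericytes had 60.4, 61.9 and 94.5%. CD90+ FB had the highest mean, at 92.6, 89.3 and 94.9%. *Kitl-201* and *Kitl-202* also differ in annotated length (1260 and 5648 bases), by far more than the 84 bases of exon 6. Reads outside that exon therefore also weigh on this share, which is not a measure of exon 6 use alone. The libraries are single reads of 50 bases and the shares are estimates, which were not tested.

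**Figure D3:**
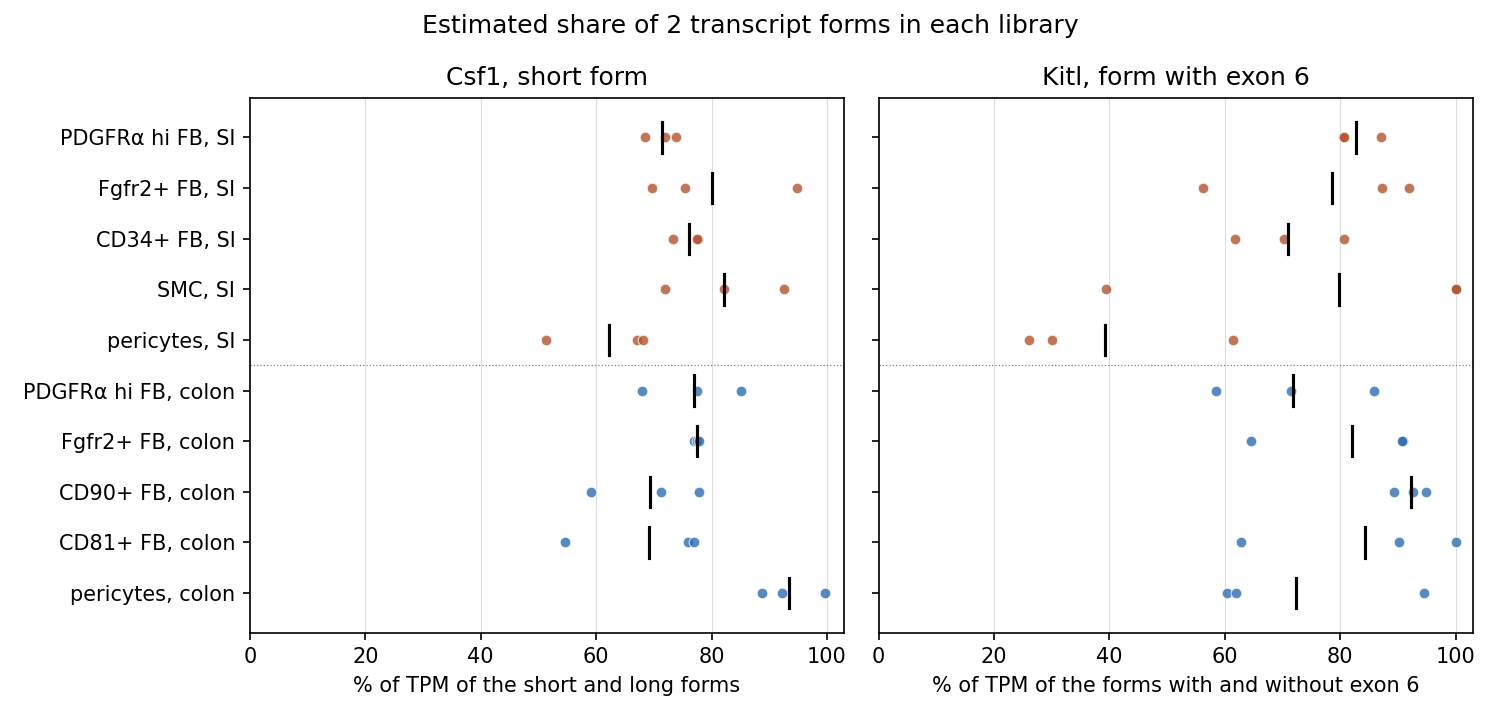
Estimated share of the short *Csf1* form (left, % of TPM of short and long forms) and of the *Kitl* form with exon 6 (right, % of TPM of *Kitl-201* and *Kitl-202*) in each library (points), with the population mean as a black bar; small intestine (SI) in brown, colon in blue. The pericytes of the small intestine have the lowest mean in both panels, 62.3% and 39.2%, and colon pericytes the highest mean for *Csf1*, 93.5%. The right panel is not a measure of exon 6 use alone, since *Kitl-201* and *Kitl-202* also differ in length outside that exon.

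The receptors of these factors were mostly low in the stromal libraries, though all 9 passed the filter. Across the 10 populations 2 of 9 were called, beside 26.4% of all genes, *Kit* (adjusted p 0.000168) and *Csf3r* (adjusted p 0.0154). *Kit* was found mainly in small intestinal PDGFRα hi FB, at 7.1, 8.52 and 43.4 CPM, and no other library but 1 of small intestinal pericytes (8.37 CPM) passed 1.9 CPM. Among these PDGFRα hi libraries, the ligand *Kitl* was highest in the one that was highest for its receptor, replicate 3 at 171 CPM. Over the genes tested, replicate 3 was also less like the other libraries of its population (r of log2 CPM 0.9 and 0.905, against 0.953 between replicates 1 and 2). Libraries of other populations had more *Kitl*, up to 223 CPM in replicate 1 of colon Fgfr2+ FB. *Flt3* stayed at or below 7.09 CPM in every library. *Csf1r*, the receptor that CSF1 and IL-34 share, was called higher in colon pericytes than in the mean of colon FB (3.23, adjusted p 0.0451), but its libraries there had 2.37, 49.7 and 0.575 CPM, and without replicate 2 the value was -0.38 (adjusted p 0.956). It stayed called in 15 of the 30 refits that left out 1 library, and the other losses, at 3.08 to 3.33, came without CD81+ FB replicate 2 or 3, any CD90+ FB library, colon Fgfr2+ FB replicate 1 or 2, PDGFRα hi FB replicate 1 or 3 of the colon or 1 or 2 of the small intestine, or any CD34+ FB library. *Csf3r* was called higher in colon pericytes than in colon FB (2.27, adjusted p 0.00511) and than in small intestinal pericytes, where the log2 fold change of small intestine over colon was -3.13 (adjusted p 0.0363). Both calls rested on colon pericyte replicate 1 at 38.6 CPM, beside 3.4 and 7.47 CPM, and without it were 0.67 (adjusted p 0.556) and -1.53 (adjusted p 0.274). The difference between the tissues was also lost without small intestinal pericyte replicate 1 (-2.80, adjusted p 0.112) or 2 (-2.99, adjusted p 0.0829). *Csf3r* was also called higher in SMC than in pericytes (3.22, adjusted p 0.018), at 7.28, 13.4 and 32 CPM against 0.859, 1.52 and 3.2 CPM. This call was lost without SMC replicate 3 (2.51, adjusted p 0.0926) or small intestinal pericyte replicate 1 (2.96, adjusted p 0.0662) or 2 (3.09, adjusted p 0.0561). *Csf2ra* and *Csf2rb2*, which code for subunits of GM-CSF family receptors, reached population means of 63.3 CPM in colon CD81+ FB (160, 19.6 and 10.9) and 55.8 CPM in colon Fgfr2+ FB (85.5, 50.2 and 31.8), and were called in none of the comparisons with edgeR, nor were *Ptprz1* and *Sdc1*, which can also bind IL-34.

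Of the 3 proteases known to release membrane-bound ligands, *Adam10* and *Adam17* were present in all populations. *Adam17* was called across the 10 populations (adjusted p 0.0332) and was highest in colon CD81+ FB, the population with the least *Kitl*, at 174, 201 and 136 CPM, and lowest in small intestinal pericytes at 8.37, 47.4 and 57.5 CPM. This call was lost without CD81+ FB replicate 1 (0.0596) or 2 (0.0738), CD90+ FB replicate 2 (0.0598) or 3 (0.0596) or SMC replicate 2 (0.0549). *Mmp9* was found at more than 3 CPM in 1 library only, colon pericyte replicate 3 at 7.4 CPM, and its call in colon pericytes against FB rested on that library. It did not pass the filter without it, nor without colon PDGFRα hi FB replicate 3 (2.44 CPM) or SMC replicate 2 (1.73 CPM).

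Among 11 other factors of blood cell growth and niche, 9 passed the filter, and 3 of them differed across the populations, beside 26.4% of all genes: *Cxcl12*, *Il6* and *Thpo*. *Il3* and *Epo* had 0 counts in every library. *Cxcl12*, which retains blood progenitors in marrow, was low in pericytes, as was *Csf1*, but also low in SMC (169, 222 and 91.8 CPM), where *Csf1* was at 292 CPM. It had 1478, 1668 and 1275 CPM in PDGFRα hi FB of the small intestine and 9.45, 18.9 and 6.89 CPM in the pericytes of that tissue, with a log2 fold change of -6.17 for pericytes against FB (adjusted p 5.91e-12). Unlike *Csf1*, it also differed between the pericytes of the tissues, with 131, 168 and 171 CPM in the colon and a log2 fold change of -3.73 for small intestine over colon (adjusted p 7.54e-07). *Il6* was found in the CD34+ populations, with means of 7.55 CPM in CD34+ FB, 7.69 in CD81+ FB, 6.77 in CD90+ FB and 5.53 in colon Fgfr2+ FB, and at 0.123 CPM or less in each of the others. *Thpo* was highest by mean in colon CD81+ FB at 70.9, 27.8 and 8.99 CPM. It had 6.86, 0.193 and 95.4 CPM in SMC and 18.8, 18.8 and 43.1 CPM in PDGFRα hi FB of the small intestine, and at most 0.756 CPM in any pericyte library.

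The genes whose mean log2 CPM ran most like a member over the 10 populations, among 14303 considered, are given as a description. For *Csf1* they were *Myh10*, *Hpcal1*, *Pdpn*, *Efemp1* and *Cd164*, all at Pearson r 0.98, and PDPN was itself used for sorting. For *Il34* they included *Myh9* (0.98), *Ets1* and *Plekha2* (0.95) and *Arhgef6* (0.94). *Flt3l* ran with *Dtx3l*, *Slc4a10*, *Hddc3* and *Trappc1* (0.92) and *Ttc25* (0.91), and *Kitl* with *Wdr20* (0.94), *Plekhn1* (0.93), *Parp12* and *Rbm10* (0.91) and *Tbx2* (0.90). Among the members, r was 0.76 between *Il34* and *Kitl* and -0.49 between *Csf1* and *Il34*. Each point is the mean of 3 libraries, and all points share the same scaling.

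Traces of other cell types were measured beside the members. The 12 immune cell markers summed to 232, 86 and 67.5 CPM in small intestinal pericytes and 100, 134 and 30.1 CPM in colon pericytes, both among the populations with the most *Il34*, and to at most 64.7 CPM elsewhere. *Cd68* led the list in both, at 115 and 45.3 CPM, while in small intestinal pericytes *Adgre1*, *C1qb*, *C1qc*, *Tyrobp*, *Fcer1g* and *Itgax* had 0 counts, and 3 of 12 reached 1 CPM. In colon pericytes *C1qa*, *Tyrobp*, *Itgax* and *Cd3e* were among those at 0 and 6 of 12 reached 1 CPM. Replicate 2 of these cells, which had the 49.7 CPM of *Csf1r* and the most *Il34* in the colon (94.8 CPM), also had 93.4 CPM of *Lyz2*, 9.45 of *C1qb* and 3.4 of *C1qc*, against at most 0.359 CPM of each in the other colon pericyte libraries. The same library had the least *Cd68* of the 3 (24.2 CPM, against 85.5 and 26.2) and the least *Ptprc* (3.02 CPM, against 5.59 and 3.52), and 0 of *Fcer1g*. Within the small intestinal pericytes the library with the most immune marker signal (replicate 1) was the one at 412 CPM of *Flt3l*, whereas *Il34* was highest in replicate 2. The 6 endothelial markers, led by *Pecam1* (72.1 CPM), summed to 164, 138 and 105 CPM in small intestinal pericytes, with *Cldn5* at 0 and 5 of 6 at 1 CPM, although CD31+ cells had been removed, and to 96.7, 57.6 and 75.7 CPM in colon pericytes. Fibroblast libraries had 33.1 to 86.9 CPM of them. SMC replicate 3 had 192 CPM of them. The part of these cells in the members' levels was not tested.

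For *Kit*, 2 lists shared the gene itself. Of 4 mast cell markers, *Cpa3*, *Fcer1a* and *Mcpt4* had 0 counts in small intestinal PDGFRα hi FB, and their sums of 7.1, 8.52 and 43.4 CPM were all *Kit*. *Ano1*, the other marker of interstitial cells of Cajal, brought the sum of that list to 7.1, 10.8 and 43.5 CPM in the same libraries. In pericytes the sum was 1096, 547 and 703 CPM in the small intestine and 723, 855 and 591 CPM in the colon. *Kit* itself was at 8.37 CPM in replicate 3 of the small intestinal pericytes and at or below 0.429 CPM in the other pericyte libraries. The 6 epithelial markers summed to at most 6.23 CPM in all but 7 libraries; the highest were colon PDGFRα hi FB replicate 3 (118 CPM) and colon pericyte replicate 2 (109 CPM), where *Muc2* led and *Epcam* was at 0. Plasma cell markers, 3 in number and led by *Sdc1*, reached 92.3 CPM in CD90+ FB replicate 2, 4 glial markers reached 56.9 CPM in small intestinal pericyte replicate 1 (*L1cam* leading, *Sox10* at 0), and 2 mesothelial markers stayed at or below 0.844 CPM.

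Immediate early genes, which respond to handling of cells as well as to signals in tissue, also differed between the populations. All 8 were called across the 10 populations, beside 26.4% of all genes. In small intestinal pericytes 7 of 8 were called higher than in the FB mean, beside 16.6% of all genes called in either direction, and in colon pericytes 4 of 8, beside 16% (median log2 fold change 1.49, against 0.01 over all genes tested). These are the comparisons in which *Il34* was higher and *Csf1* lower. In SMC, where both ligands were also called against pericytes, all 8 means were lower. *Fos* had 21.1 against 599 CPM and *Egr1* 232 against 3819 CPM. Small intestinal Fgfr2+ and PDGFRα hi FB, with *Il34* called higher than in CD34+ FB, also had lower means of all 8. *Fos* had 14.8 and 33.6 CPM there, against 160 CPM in CD34+ FB. In the colon 6 of 8 were called lower in PDGFRα hi than in CD81+ FB, beside 3.94% of all genes, the comparison in which *Il34* was higher in PDGFRα hi FB. Between the tissues 7 of 8 were called lower in small intestinal than in colon Fgfr2+ FB, beside 1.45% of all genes (median -3.79, against -0.01), the comparison in which *Flt3l* was higher, and *Fos* there had 8.38, 18.7 and 17.3 CPM against 146, 378 and 320 CPM. In pericytes 0 of the 8 were called between the tissues with edgeR, beside 5.72% of all genes, with 4230 genes at an unadjusted p under 0.05 and 2407 called by DESeq2. Their part in the members' differences was not tested.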

How the data were processed

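RNA-seq of 30 libraries from 10 sorted stromal populations was used as deposited. The authors trimmed reads with Trim Galore 0.4.0, checked them with FastQC 0.11.2 and quantified transcripts with kallisto 0.42.5. The deposited tables give, for each transcript, an estimated count (expected count) with its effective length (eff_length), and length-scaled abundance (TPM). The transcript set was not named by the submitters; it was matched by GENCODE release M21, in which 97116 of 98492 transcripts were found, and genes then held 97.8 to 99.2% of the counts of a library.

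Estimated counts were summed to 32316 genes by symbol and rounded to whole counts for testing. Library totals ran from 2245052 to 19096945. The 17542 genes that reached 6 counts in 3 or more libraries were scaled by TMM and tested with the quasi-likelihood F test of edgeR 4.0.16 in R 4.3.3, with 1 model of the 10 populations. Calls needed a Benjamini-Hochberg adjusted p under 0.05 and a log2 fold change beyond 1.5 in either direction, and in the test across all 10 populations by adjusted p alone. There were 18 tests: across all populations, between tissues in the 3 populations sorted from both, the interaction of tissue with population, and between populations of a tissue, with contrasts against the mean of FB taken on the log2 scale. Between genes, levels were compared as CPM per kb of effective length.

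Named genes were the 6 members, and the genes of lists for receptors, sheddases, other growth factors, immediate early genes, the sorted populations and other cell types (immune, plasma, endothelial, epithelial, mast, glial and mesothelial cells and interstitial cells of Cajal), with genes from the 5 most like each member among those with a population mean of at least 5 CPM. The members and lists were chosen with earlier results of these data known. Alternatives were DESeq2 1.42.0, RLE factors, no filter, replicate number as a block, a fit of only the populations compared, leaving out each library, and levels on other scales. Added after the data were seen were counts on the members' protein-coding transcripts only (also for the *Il34* share) and *Gm45713* added to *Flt3l*. A count of 0 was taken to allow up to 3 counts, which covers counting error only. The procedure was tested on simulated data.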

Additional observations from a re-analysis of the deposited data

How the results depend on the processing

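The number of genes called depended on the tool and on the libraries in the fit more than on the scaling. With DESeq2 in place of edgeR, 403 genes were called between tissues in PDGFRα hi FB, 814 in Fgfr2+ FB and 2407 in pericytes, and 367 in the interaction. In the small intestine it called 908 between PDGFRα hi and Fgfr2+ FB, 598 between Fgfr2+ and CD34+ FB, and 2941 between SMC and pericytes. In the colon it called 481, 1216 and 473 between PDGFRα hi FB and Fgfr2+, CD81+ and CD90+ FB, 541 and 37 between Fgfr2+ FB and CD81+ and CD90+ FB, and 390 between CD81+ and CD90+ FB.

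With only the populations compared in the fit, where fewer libraries estimate the spread, 406 genes were called between tissues in PDGFRα hi FB, 201 in the interaction and 0 in pericytes, for which edgeR called 1003 with all libraries, at an unadjusted p under 0.05 for 4230 genes, and DESeq2 2407. In the small intestine 1349 were called between PDGFRα hi and CD34+ FB, 395 between Fgfr2+ and CD34+ FB, and 390 between SMC and pericytes. In the colon 481 and 730 were called between PDGFRα hi FB and Fgfr2+ and CD90+ FB, 68 and 2 between Fgfr2+ FB and CD81+ and CD90+ FB, and 34 between CD81+ and CD90+ FB. With no filter on low counts 3 were called between colon Fgfr2+ and CD90+ FB and 167 between CD81+ and CD90+ FB. RLE factors moved no count by more than 1.5 times. The cause was not tested.

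Leaving out 1 library at a time gave 4086 to 5154 genes across all populations. Between tissues it gave 108 (without colon PDGFRα hi FB replicate 3) to 210 in PDGFRα hi FB, 162 (without small intestinal Fgfr2+ FB replicate 1) to 339 in Fgfr2+ FB, 616 to 1711 in pericytes (without small intestinal pericyte replicate 1 and replicate 3) and 63 (without colon Fgfr2+ FB replicate 3) to 136 in the interaction. In the small intestine the ranges were 297 to 523 for PDGFRα hi against Fgfr2+ FB, 407 to 631 for PDGFRα hi against CD34+ FB, 126 (without CD34+ FB replicate 1) to 270 for Fgfr2+ against CD34+ FB, and 1267 to 2473 for SMC against pericytes. Against the mean of FB they were 2110 to 3469 for small intestinal pericytes, 530 (without SMC replicate 3) to 1069 for SMC and 2232 to 3045 for colon pericytes. In the colon they were 129 to 290, 481 to 820 and 160 to 301 for PDGFRα hi FB against Fgfr2+, CD81+ and CD90+ FB, with the first and last lowest without PDGFRα hi FB replicate 3. They were 84 (without colon Fgfr2+ FB replicate 2) to 214 for Fgfr2+ against CD81+ FB, 0 to 0 for Fgfr2+ against CD90+ FB, and 44 (without CD90+ FB replicate 1) to 155 for CD81+ against CD90+ FB.

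Replicate number as a block gave 3857 genes across all populations and 729 between the pericytes. It changed no call of the 48 member differences described below and moved no count of calls by more than 1.5 times. The study describes subsets of both tissues as sorted from the same animals, but neither it nor the labels say which libraries share a mouse. After removal of population means, the mean correlation over 135 pairs of libraries with the same number was 0.01 (from -0.11 to 0.13), and over 270 pairs with other numbers it was -0.00. Of 30 libraries, 23 correlated best on average with libraries of their own number, a hint from the data that libraries of the same number may share a mouse.

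Of 85 member differences tested, 48 were at least 0.5 on the log2 scale for the 4 expressed members or were called under some alternative. They were recomputed under 1738 alternatives in all: 1675 kept direction and side of the threshold, 32 lost the call, 30 gained it and 1 reversed. The other 37 were called under no alternative, and their sign changed in 69 of 1306 values. The reversal was *Flt3l* in small intestinal pericytes against FB, at -0.34 without small intestinal pericyte replicate 1. The highest value with 1 library left out was 1.44, without replicate 2, and the highest over all its alternatives was 2.18, on protein-coding transcripts alone. *Csf1* and *Il34* in pericytes against FB of either tissue, *Kitl* in colon pericytes against FB, *Il34* in SMC against pericytes, in small intestinal PDGFRα hi against CD34+ FB and in colon PDGFRα hi against CD81+ FB were called in all 36 alternatives each. The population with the highest mean was the same in CPM, CPM per kb and TPM for *Csf1*, *Il34* and *Flt3l*; for *Kitl* it was small intestinal Fgfr2+ FB in CPM and TPM and small intestinal pericytes in CPM per kb. On protein-coding transcripts alone, in CPM, the highest *Flt3l* mean moved from small intestinal Fgfr2+ FB to small intestinal pericytes (133 CPM). On all transcripts, *Il34* was higher in colon pericytes than in small intestinal PDGFRα hi FB in CPM (73.9 and 71.8) and lower in CPM per kb (105 and 115) and TPM (105 and 113). Depth limits *Csf2* and *Csf3* most, where 3 counts correspond to 0.142 to 1.04 CPM.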
